A study of Mus with 4 samples.

Results

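The glial cell line-derived neurotrophic factor (GDNF) family was followed through single-cell libraries of mouse dorsal root ganglia (DRGs) as 7 genes chosen by symbol out of the 31253 genes of the matrices: the ligands Gdnf, Nrtn and Artn, the receptor tyrosine kinase Ret, and the co-receptors Gfra1, Gfra2 and Gfra3. The symbols were matched in the gene list of all 4 libraries, each to 1 gene. DRGs L4 and L5 were taken from wildtype male C57BL/6J mice 6 to 8 weeks old, either naive (CON) or 3 d after chronic constriction injury (CCI), in which the left sciatic nerve is loosely tied with chromic gut. Each group has 2 droplet libraries, and nothing in the sources used here says how many mice a library holds or whether replicates came from separate mice, so the spread between libraries may be partly technical. CON was naive and not sham-operated, so surgery and nerve ligation cannot be told apart.

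GDNF family ligands bind a co-receptor held to the membrane by a glycolipid anchor, and the pair then brings Ret together and switches on its kinase, which feeds the ERK and AKT pathways. Each ligand has a preferred co-receptor: GDNF binds Gfra1, neurturin (Nrtn) binds Gfra2 and artemin (Artn) binds Gfra3. In the DRG, Ret is a known receptor of non-peptidergic nociceptors and of some myelinated mechanoreceptors, and Gfra3 is known in peptidergic nociceptors that carry Trpv1.

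On GRCm38, the build that mm10 names, the RefSeq gene spans are chr15:7810048-7837580 for Gdnf, chr17:56751323-56757548 for Nrtn, chr4:117925908-117930795 for Artn, chr6:118151748-118197744 for Ret, chr19:58235581-58455946 for Gfra1, chr14:70890107-70979840 for Gfra2 and chr18:34689898-34720387 for Gfra3. All 7 are protein-coding genes, and each lies on a chromosome of its own.

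After filtering, 35113 of 37451 barcodes were kept, between 2613 and 11155 per library, with a median of 2508 to 8352 UMIs (unique molecular identifiers, each standing for 1 captured transcript). CON replicate 2 stood apart with the fewest cells and the deepest ones. Pairs of libraries shared between 12 and 31 barcode sequences, at most 0.385% of the smaller library. Marker genes gave clusters their names, written X-like, and the members were kept out of the clustering. The 4082 neurons split into NP1-like (Mrgprd, 868 cells), NP2-like (Mrgpra3, 145), SST-like (Sst and Nppb, 209), PEP1-like (Tac1 and Calca, 929), PEP2-like (217), cLTMR1-like (Th, 265), TRPM8-like (201) and NF-Pvalb-like cells (Pvalb and Nefh, 252), 431 cells left unnamed and 565 CIP-like cells. CIP-like clusters, named for the injury-induced population of the study, were called from Atf3, Sprr1a, Camk1, Flrt3 and Gpr151 and held 3, 2, 334 and 226 cells in the 4 libraries, CON first. The cluster behind the NF-Pvalb-like class had 6 of 6 of its own markers up. It also had 5 markers up of another myelinated class, NF-Htr3a, for which no cluster was named. Both marker lists hold Nefh, and Pvalb and Htr3a neurons were not separated in this class. The labels call all the cells neurons, but clusters with glial, fibroblast, mural, immune and endothelial markers held most of them. Levels are in CPM, the UMIs of a gene per 1000000 UMIs of its class in that library. They are given in the order CON replicate 1, CON replicate 2, CCI replicate 1, CCI replicate 2, and errors are SDs over the 2 libraries of a group. UMIs are taken at the 3' end of transcripts, so a CPM is not scaled by gene length.

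The 3 ligands were sparse beside their receptors. Gdnf gave 13, 7, 20 and 11 UMIs in all kept cells of the 4 libraries, and Artn gave 9, 8, 19 and 12. Neither gene passed the filter on low counts in the neurons. Gdnf and Artn were tested over all kept cells, where the fit gave log2 fold changes of -0.24 ± 0.52 (SE) for Gdnf and -0.04 ± 0.50 for Artn between CCI and CON, with adjusted p-values of 0.917 and 0.987 in edgeR.

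The few Gdnf UMIs were unevenly placed. PEP1-like neurons held 29 of the 31 neuronal Gdnf UMIs, with 9, 3, 13 and 4 in the 4 libraries, which is 0.770, 0.412, 0.796 and 0.306 CPM. No Gdnf UMI fell in NP1-like, cLTMR1-like or CIP-like cells, where a count of 0 sets a limit of 3 UMIs per library. Pericyte-like cells gave 3, 2, 1 and 2 Gdnf UMIs, or 2.97, 3.09, 0.508 and 1.13 CPM. With such counts no difference between CON and CCI was detectable in either class.

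Artn, the ligand of the co-receptor of peptidergic neurons, had 14 UMIs in pericyte-like cells over the 4 libraries, 3, 4, 6 and 1, or 2.97, 6.18, 3.05 and 0.566 CPM. Neurons as a whole gave 3, 2, 9 and 7 Artn UMIs, spread over 6 of the 10 neuronal classes. Artn was at 0 in the immune-like and endothelial-like cells of all 4 libraries.

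Nrtn was the ligand with most transcripts, at 171, 108, 174 and 243 UMIs. Satellite glia-like cells, the glia that wrap neuron cell bodies, held 59, 66, 52 and 97 of them at 6.08, 6.10, 4.38 and 5.12 CPM. Fibroblast-like cells stood at 8.70, 0, 5.00 and 5.85 CPM, the 0 resting on only 45 cells. In immune-like cells Nrtn had between 0 and 3 UMIs per library. The log2 fold change of Nrtn in satellite glia-like cells was -0.26 ± 0.30 (SE), with an adjusted p of 0.998 in edgeR.

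Among neurons, Nrtn was highest in NF-Pvalb-like cells, which include large myelinated fibres of touch and limb position. Its levels there were 17.4, 12.5, 5.22 and 6.53 CPM, from 34, 16, 16 and 22 UMIs, and NF-Pvalb-like cells held 88 of the 196 neuronal Nrtn UMIs. Both CCI libraries lay below both CON libraries. The log2 fold change was -1.29 ± 0.41 (SE) and did not pass the test, with an adjusted p of 0.215 in edgeR. In NP1-like and cLTMR1-like neurons, which carry the Nrtn co-receptor Gfra2, the Nrtn level was between 0.209 and 0.387 CPM.

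**Figure D1:**
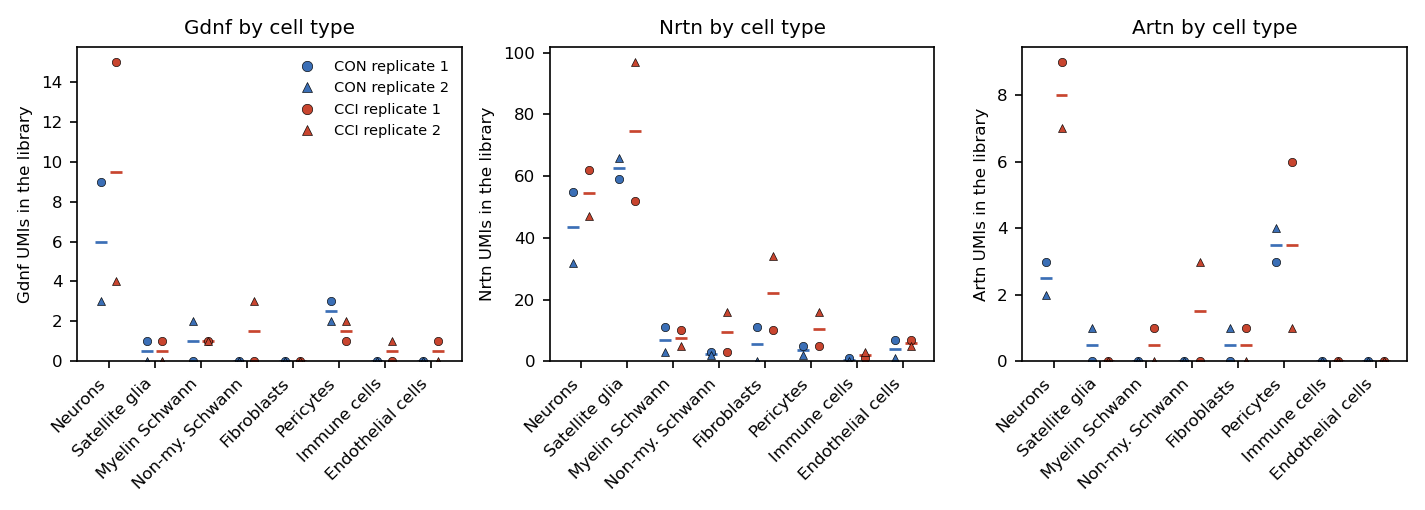
UMIs of Gdnf, Nrtn and Artn (y axes, whole counts per library) in neurons and 7 non-neuronal classes (x axes). Points are libraries and bars are group means. Nrtn reached 97 UMIs in a satellite glia-like class, whereas Gdnf stayed at or under 15 and Artn at or under 9 in every class shown.

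Ret, the shared signalling receptor, was a neuronal transcript. Neurons held 85.6%, 97.6%, 86.5% and 89.1% of the Ret UMIs while holding 61.3%, 58.4%, 67.7% and 54.1% of all UMIs. Its level over all neurons was 311, 293, 318 and 299 CPM, and the groups overlapped.

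By subtype, Ret stood highest in cLTMR1-like neurons, the C-fibre low-threshold mechanoreceptors, at 564, 495, 573 and 528 CPM. NP1-like neurons followed at 449, 389, 408 and 367 CPM, below cLTMR1-like cells in every library. NP2-like cells, known for itch, stood at 291, 204, 256 and 199 CPM. In CON the next levels were 164 ± 18.4 CPM in PEP1-like and 154 ± 51.9 CPM in NF-Pvalb-like neurons, which overlapped, then 119 ± 3.70 CPM in SST-like and 99.9 ± 2.55 CPM in TRPM8-like neurons. PEP2-like cells were lowest at 58.9 and 12.1 CPM in CON, the latter from 3 cells.

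The co-receptors divided the Ret-bearing neurons between them. Gfra2, the neurturin co-receptor, was concentrated in 2 subtypes: cLTMR1-like neurons stood at 499, 497, 482 and 523 CPM and NP1-like neurons at 261, 281, 237 and 254 CPM. Those 2 subtypes together carried most of the neuronal Gfra2 UMIs in every library, NP1-like cells 60.0%, 37.4%, 54.8% and 40.6% and cLTMR1-like cells 33.6%, 59.7%, 29.5% and 48.9%. TRPM8-like neurons were next at 53.8, 48.1, 61.3 and 61.4 CPM. In PEP1-like neurons the level of Gfra2 was 5.22, 1.92, 5.26 and 1.91 CPM.

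Gfra3, the artemin co-receptor, was highest in PEP1-like neurons, where Gfra2 was low. PEP1-like neurons stood at 278, 413, 331 and 399 CPM and held 80.5% and 79.9% of the neuronal Gfra3 UMIs in CON. TRPM8-like cells, the cold-sensing neurons, had 183, 195, 274 and 367 CPM, and SST-like cells, another itch class, had 121, 123, 320 and 306 CPM. TRPM8-like cells thus carried Gfra2 as well as Gfra3. PEP1-like and TRPM8-like Gfra3 levels did not overlap in CON and did overlap in CCI. In NP1-like neurons the level was 1.29, 7.59, 19.3 and 10.5 CPM.

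Gfra1, the GDNF co-receptor, had the lowest level of the 3 over CON neurons. NP2-like neurons led in CON at 217 and 150 CPM and stood at 170 and 155 CPM in CCI. NF-Pvalb-like neurons came next in CON, at 80.4 and 100 CPM, followed by NP1-like neurons at 43.8 and 35.9 CPM. By UMIs, NP1-like cells held 38.8% and 29.4% of the neuronal Gfra1 in CON, and NP2-like cells 32.0% and 42.8%. In cLTMR1-like neurons Gfra1 had only 6, 6, 32 and 18 UMIs, or 1.32, 0.917, 7.66 and 3.76 CPM.

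**Figure D2:**
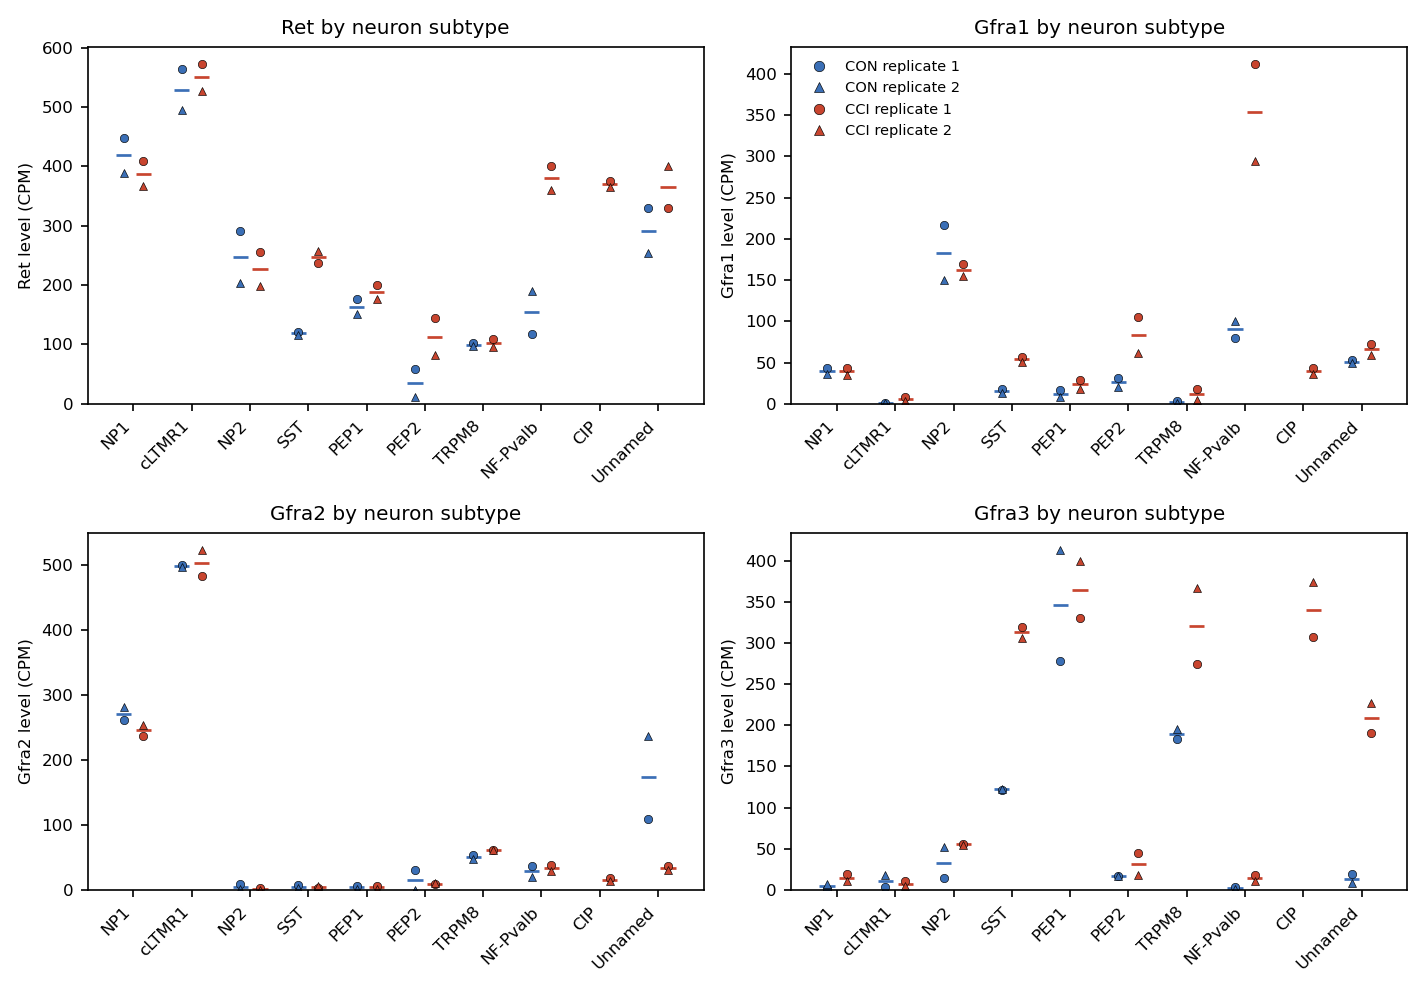
Levels of Ret, Gfra1, Gfra2 and Gfra3 (y axes, CPM from 0) in each neuron subtype (x axes). Points are libraries and bars are group means, with the 5 CIP-like CON cells left out. Gfra2 peaks in cLTMR1-like and Gfra3 in PEP1-like neurons in both groups, and the Gfra1 points of NF-Pvalb-like neurons separate, 80.4 and 100 CPM in CON against 412 and 295 CPM in CCI.

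Per cell, the pairing of Ret with its co-receptors followed the same lines. To compare cells of unlike depth, each cell was thinned to 10000 UMIs and shallower cells were left out. Ret and Gfra2 were then seen together in 86.6% (exact 95% interval 81.7 to 90.5) of the NP1-like cells of CON replicate 1, in 87.7% (77.2 to 94.5) of replicate 2, and in 79.6% (73.6 to 84.8) and 84.8% (75.8 to 91.4) of those of CCI. In cLTMR1-like cells the share was 100% in CON and 97.0% ± 2.09 (SD, n = 2) in CCI. Intervals of shares cover counting error only.

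Ret and Gfra3 were seen together in 69.0%, 73.3%, 71.1% and 67.7% of PEP1-like cells, and the groups overlapped. Another 20.3% of the PEP1-like cells in CON and 18.8% in CCI had Gfra3 and no Ret UMI at this depth. Unthinned, Ret was found in 97.0%, 74.4%, 98.3% and 94.4% of PEP1-like cells. Endothelial-like cells, which are not a known site of Ret, serve as a comparison class. At 2000 UMIs per cell 8.54%, 1.16%, 10.8% and 3.81% of them had a Ret UMI, against 39.0%, 36.6%, 43.4% and 39.2% of neurons at the same depth. Their median depth before thinning was 3897 to 11044 UMIs, and that of the neurons 34751 to 60404.

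In NF-Pvalb-like cells, Ret and Gfra1 were seen together in 10 of 40 cells (interval for the share 12.7% to 41.2%) and 4 of 10 cells (40.0%, 12.2 to 73.8) of the CON libraries. The CCI libraries gave 53.3% (41.4 to 64.9) and 54.4% (40.7 to 67.6). Both CCI shares lay above both CON shares. The interval of CON replicate 2 overlapped those of both CCI libraries, and that of CON replicate 1 overlapped that of CCI replicate 2. The share of NF-Pvalb-like cells with none of the 4 receptors was 37.5% in CON and 15.9% in CCI. These 2 shares are given without intervals, and the CON share rests on the same 40 and 10 cells.

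**Figure D3:**
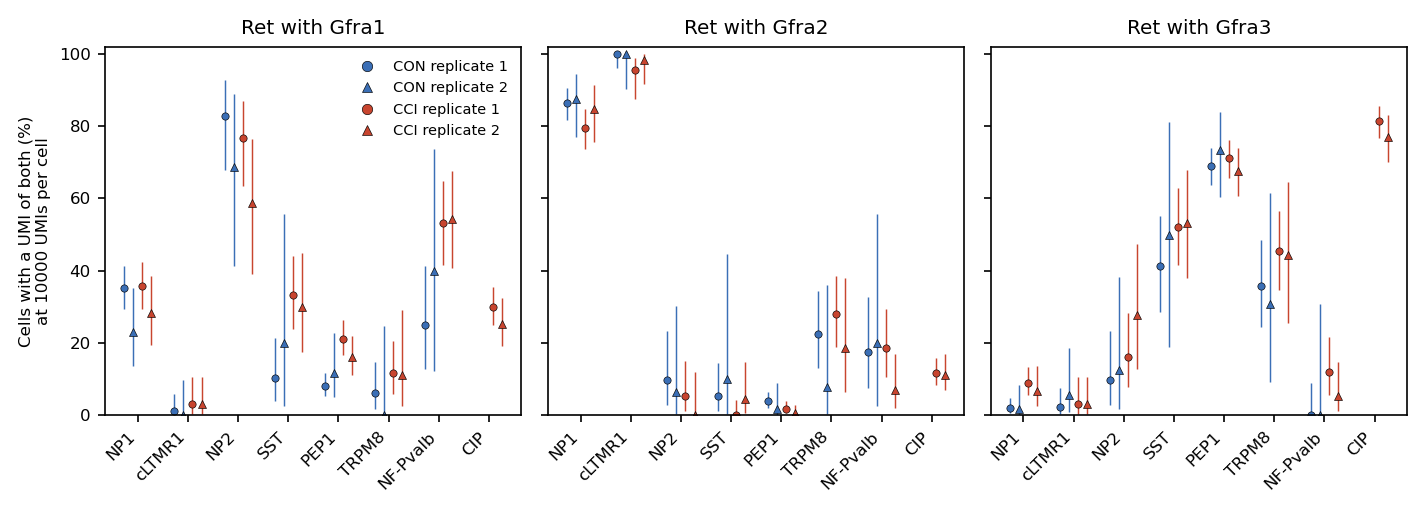
Percent of cells with at least 1 UMI of both Ret and the named co-receptor (y axis, cells thinned to 10000 UMIs) by neuron subtype (x axes). Points are libraries with exact 95% intervals, and PEP2-like and unnamed cells are not drawn. Ret with Gfra2 is highest in NP1-like and cLTMR1-like cells, while Ret with Gfra3 reaches 81.5% and 77.1% in the CIP-like cells of CCI.

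Over the neurons taken as a whole, Gfra2 fell and Gfra3 and Gfra1 rose in CCI, and these 3 of the 5 members that could be tested passed the test. Over all genes, 791 of 15544 were called at an adjusted p under 0.05, which is 5.09%. By direction, 666 genes (4.28%) were higher and 125 (0.804%) lower.

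Gfra2 stood at 155 and 191 CPM in CON neurons and at 80.0 and 88.5 CPM in CCI neurons. Its groups did not overlap, and its log2 fold change was -0.97 ± 0.20 (SE), adjusted p = 0.0254 in edgeR. Gfra3 stood at 93.2 and 132 CPM in CON and at 198 and 226 CPM in CCI. It rose by 0.99 ± 0.23 on the log2 scale, adjusted p = 0.0413 in edgeR, again with no overlap.

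Gfra1 stood at 40.3 and 31.1 CPM in CON neurons and at 63.7 and 52.7 CPM in CCI neurons. The log2 fold change was 0.78 ± 0.19 (SE), adjusted p = 0.0488 in edgeR. For Ret it was 0.11 ± 0.17, adjusted p = 0.815 in edgeR, and for Nrtn, at 1.27, 1.12, 0.726 and 0.812 CPM, it was -0.57 ± 0.35, adjusted p = 0.452. The calls lean on single libraries: without CCI replicate 1 the adjusted p-values in edgeR were 0.246 for Gfra1 and 0.153 for Gfra2, without CON replicate 2 that of Gfra1 was 0.0714, and without CCI replicate 2 that of Gfra3 was 0.0858. The Gfra1 call was also lost with upper-quartile scaling in edgeR and all 4 libraries, at an adjusted p of 0.0565.

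The make-up of the neurons changed along with these levels. CIP-like cells made up 0.264% and 0.617% of the neurons in CON and 20.6% and 22.6% in CCI. NP1-like cells were 25.4% and 34.6% of CON neurons and 17.6% and 18.1% of CCI neurons, and cLTMR1-like cells were 8.4%, 11.1%, 4.1% and 6.6%. These shares depend on the depth rule for neurons. A cluster with 5 of 5 cLTMR1 markers, left out at 0.938 of the library median UMI count, held 16, 12, 17 and 89 cells. Another with 5 of 5 NP1 markers, left out at 0.558, held 59, 39, 124 and 97 cells. Which part of the change over all neurons goes with these shares was not tested as such. The levels within each class are given next.

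CIP-like cells, nearly all from CCI, carried much Gfra3 and Ret and little Gfra2. In the 2 CCI libraries Gfra3 stood at 307 and 374 CPM, Ret at 375 and 365 CPM, Gfra1 at 43.9 and 36.3 CPM and Gfra2 at 17.7 and 13.4 CPM. These cells held 41.6% and 41.7% of the Gfra3 UMIs of CCI neurons but 5.93% and 3.81% of the Gfra2 UMIs. The class was defined by injury genes, so its levels are a description with no test.

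Among the CIP-like clusters, one led by Tnfaip6, with 208 cells, had the highest Gfra3 at 548 and 593 CPM and the lowest Gfra2 at 4.11 and 3.02 CPM. The cluster led by Anxa1 and Krt16, with 202 cells, had Gfra3 at 202 and 227 CPM and Gfra2 at 19.9 and 16.6 CPM. In the cluster led by Crh, with 69 cells, Gfra3 was 170 and 208 CPM and Gfra2 36.5 and 28.3 CPM. Ret lay between 310 and 445 CPM in all 3 of these clusters, and the CIP-like cluster led by Trim15 and Kcnk16, with 86 cells, had Ret at 406 and 236 CPM. Ret and Gfra3 were seen together in 81.5% (interval 76.7 to 85.7) and 77.1% (70.0 to 83.1) of CIP-like cells at 10000 UMIs per cell.

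Outside the CIP-like clusters, no member passed the test in edgeR, and 222 of 15261 genes did (1.45%). Gfra1 was closest, at 40.4 and 31.0 CPM in CON and 70.9 and 58.3 CPM in CCI, with a log2 fold change of 0.88 ± 0.19 (SE) and an adjusted p of 0.0696 in edgeR. Gfra2 gave -0.66 ± 0.20, adjusted p = 0.246, and Gfra3 gave 0.60 ± 0.23, adjusted p = 0.382. The call of Gfra1 depended on the tool, since DESeq2 gave it an adjusted p of 0.0044.

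In the subtypes that held most Gfra2 and Gfra3 in CON, the difference between CCI and CON was smaller than its error. SST-like and TRPM8-like neurons, which also carry Gfra3 and had more of it in CCI, could not be tested. In NP1-like neurons the log2 fold change of Gfra2 was -0.10 ± 0.20 (SE), and in cLTMR1-like neurons it was -0.01 ± 0.16. In PEP1-like neurons Gfra3 gave 0.13 ± 0.28. The adjusted p-values of these 3 were 0.928, 0.999 and 0.999 in edgeR. No member was called in the 3 subtypes, where 0.416%, 0.0629% and 0.0843% of the genes were.

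Low-level members moved more in the same cells without passing the test. Gfra3 in NP1-like neurons, at 1.29, 7.59, 19.3 and 10.5 CPM, had a log2 fold change of 1.93 ± 0.58 (SE), adjusted p = 0.308 in edgeR. With 1 library left out it ranged from 0.99 (without CON replicate 1) to 3.6 (without CON replicate 2), and it passed in 4 of 11 alternatives. Gfra1 in cLTMR1-like neurons had 2.32 ± 0.52, adjusted p = 0.174. In PEP1-like neurons, where its levels were 16.8, 8.10, 28.9 and 18.3 CPM, Gfra1 had 0.97 ± 0.35, adjusted p = 0.916 by edgeR. These Gfra1 values passed in 3 of 11 alternatives in cLTMR1-like and 1 of 11 in PEP1-like neurons.

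Of the 4 subtypes tested, NF-Pvalb-like neurons alone had members called. Gfra1 there went from 80.4 and 100 CPM in CON to 412 and 295 CPM in CCI, which in log2 terms is 2.02 ± 0.29 (SE), with an adjusted p of 0.0044 in edgeR. The libraries did not overlap. Gfra3 rose too, by 2.53 ± 0.53 on the log2 scale, adjusted p = 0.0364, but from very few molecules: 6, 2, 54 and 35 UMIs, or 3.07, 1.56, 17.6 and 10.4 CPM. So 2 of the 5 members tested were called, both higher, where 1.57% of 10712 genes were called and 1.52% were called higher.

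Ret in NF-Pvalb-like neurons stood at 117 and 191 CPM in CON and at 401 and 361 CPM in CCI, with no overlap. Its log2 fold change was 1.36 ± 0.32 (SE) and its adjusted p in edgeR was 0.0636, just outside the threshold. DESeq2 gave 0.0055, and the result passed in 7 of 12 alternatives. Gfra2 gave 0.23 ± 0.32, adjusted p = 0.895 in edgeR. Both parts of the GDNF receptor were higher in the CCI libraries of this subtype, Gfra1 past the threshold and Ret not.

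The NF-Pvalb-like libraries were small and unlike in depth, with 64, 28, 98 and 62 cells and median UMIs of 12816, 1974, 22105 and 58164. With cells of at least 10000 UMIs alone, an alternative added after the data were seen, Gfra1 gave 2.07 with an adjusted p of 0.0037 and Ret 1.47 with 0.0751 in edgeR. Without CON replicate 1 the adjusted p of Gfra1 was 0.0749. Gfra3 lost its call in 6 of 12 alternatives, DESeq2 among them at an adjusted p of 0.0790. Injury genes and markers of other subtypes moved with these receptors: the 5 CIP markers summed to 95.7, 56.3, 1237 and 2285 CPM, the 5 PEP1 markers to 456, 227, 1587 and 750 CPM, and the 6 SST markers to 24.6, 12.5, 164 and 199 CPM. Their part in the result was not tested.

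The difference of the CCI effect between a subtype and the other neurons outside the CIP-like clusters was tested directly. Those other neurons were 1 sum per library, and their mix of subtypes differed between CON and CCI. Unnamed neurons, a part of that sum, were 8.88%, 4.94%, 13.5% and 9.51% of all neurons. How far this mix enters the differences was not tested. For NF-Pvalb-like neurons, Gfra1 rose by 1.55 ± 0.29 (SE) more on the log2 scale and Ret by 1.53 ± 0.29 more, with adjusted p-values of 0.0172 and 0.0224 in edgeR, where 0.416% of genes were called. In NP1-like neurons the Gfra1 effect was lower than elsewhere by -1.09 ± 0.14, adjusted p = 0.0106, against 0.272% of genes called. In PEP1-like neurons the Gfra3 effect was lower by -1.44 ± 0.21, adjusted p = 0.0476, against 0.104% called. No member was called for cLTMR1-like neurons, where 0.143% of genes were. Without CON replicate 1 the NF-Pvalb-like differences had adjusted p-values of 0.191 for Gfra1 and 0.263 for Ret, and without CCI replicate 1 the other differences had 0.156.

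**Figure D4:**
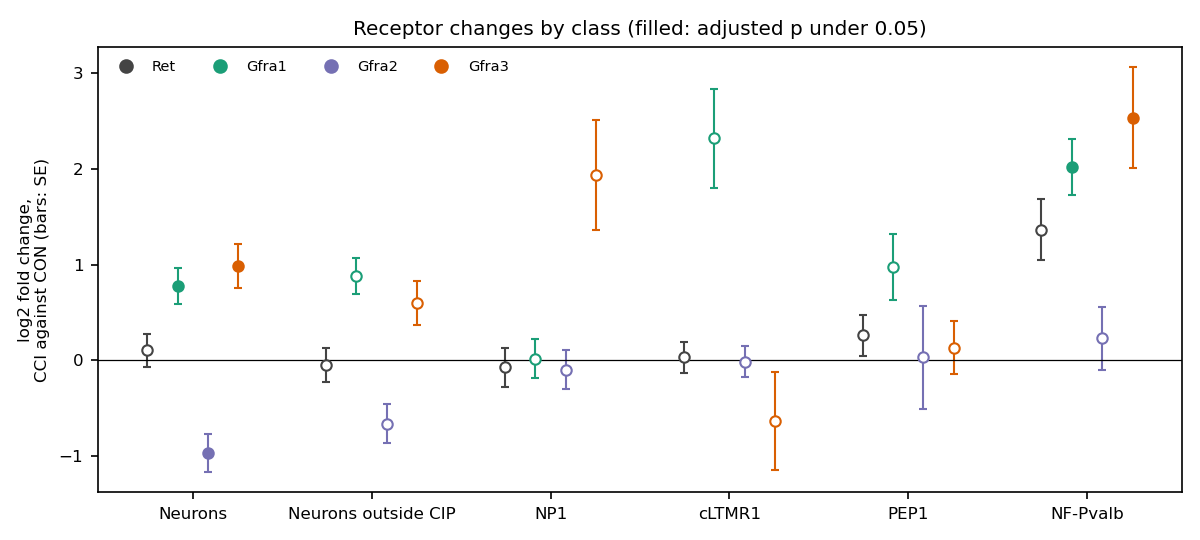
Log2 fold change of CCI against CON (y axis, bars are SE) for Ret, Gfra1, Gfra2 and Gfra3 in neurons, in neurons outside the CIP-like clusters and in the 4 subtypes large enough to test (x axis). Filled points have an adjusted p under 0.05 in edgeR: Gfra1, Gfra2 and Gfra3 in all neurons, and Gfra1 and Gfra3 in NF-Pvalb-like neurons.

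NP2-like, SST-like, PEP2-like and TRPM8-like neurons had too few cells in CON replicate 2, with 17, 10, 3 and 14, to be tested. NP2-like cells, the leading Gfra1 carriers in CON, are among them. A further cluster led by Mrgpra3, with 3 of 5 NP2 markers, held 31, 12, 73 and 54 cells. It was left out by the depth rule, at 0.818 of the library median UMI count. The number of NP2-like cells thus depends on that rule. In SST-like cells Ret went from 121 and 116 CPM to 236 and 258 CPM, Gfra1 from 17.5 and 13.1 to 56.5 and 51.0 CPM, and Gfra3 from 121 and 123 to 320 and 306 CPM. In all 3 cases the CON and CCI values did not overlap, which for 2 against 2 libraries has a chance of 0.333 without any change. The Gfra2 and Nrtn levels of SST-like cells did overlap between the groups, and Gdnf and Artn had no UMI there. The share of all genes without overlap was not counted. The 5 CIP markers summed to 166, 111, 954 and 1853 CPM in SST-like cells, and their part was not tested. Gfra1 in PEP2-like cells was 31.8, 20.8, 105 and 61.7 CPM.

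The unnamed neurons also differed by group, at 18.7, 8.17, 191 and 227 CPM for Gfra3 and 109, 237, 36.2 and 31.1 CPM for Gfra2. One of their clusters is led by genes of glia such as Apoe and Ednrb, and doublets were not removed from any class. The larger cluster, with 259 cells (65, 9, 140 and 45), had 5 of 6 NF-Pvalb markers up. It was left unnamed because most of its 10 leading genes are noncoding or predicted RNAs. Its cells counted among the other neurons when the NF-Pvalb-like CCI effect was compared, and their part there was not tested. A PEP1-like cluster of 116 cells shared the leading genes 2900052N01Rik and Acsbg1 with a satellite glia-like cluster. It is included in the PEP1-like values, and its own Gfra3 level was 227 CPM in CON replicate 1 and 328 and 341 CPM in CCI. In the low-UMI barcodes with neuron markers, which were kept out of the neurons, Gfra1 was 49.9, 28.7, 158 and 148 CPM.

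Outside the neurons, Ret differed more between libraries than between cell types. It was between 2.77 and 8.77 CPM in all 7 non-neuronal classes of CON replicate 2, and between 36.3 and 76.3 CPM in those of CON replicate 1. CCI replicate 1 gave 39.1 to 91.1 CPM and CCI replicate 2 gave 12.7 to 35.6 CPM. Endothelial-like cells, the comparison class above, stood at 42.5, 4.10, 58.8 and 20.3 CPM. Stray RNA was not estimated, so the source of Ret levels of that size was not tested.

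Gfra1 and Gfra2 had levels in some non-neuronal classes that stood above those of endothelial-like cells. Gfra1 in CON replicate 2, the library with the lowest Ret outside the neurons, was 103 CPM in fibroblast-like and 56.5 CPM in myelin-forming Schwann-like cells. In the same library it was 3.33 CPM in endothelial-like and 6.15 CPM in immune-like cells. Gfra2 there was 81.8 CPM in pericyte-like, 75.4 in fibroblast-like, 70.8 in satellite glia-like and 60.2 CPM in non-myelinating Schwann-like cells, against 7.68 CPM in endothelial-like cells. Gfra1 in myelin-forming Schwann-like cells was 63.5, 56.5, 127 and 84.2 CPM, and its log2 fold change of 0.87 ± 0.31 (SE) had an adjusted p of 0.999 in edgeR.

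Gfra3 was low in all non-neuronal classes except the non-myelinating Schwann-like cells of 3 libraries, at 28.3, 3.05, 81.7 and 50.9 CPM. Its log2 fold change there was 2.12 ± 0.89 (SE), adjusted p = 1.00 in edgeR. It ranged from 1.29 without CON replicate 2 to 4.50 without CON replicate 1 and passed in none of the 10 alternatives. Ret in the same cells was 72.9, 5.34, 91.1 and 35.6 CPM, and the 9 neuron markers summed to 9147, 692, 10311 and 4344 CPM, also lowest in CON replicate 2. The part of neuron RNA in the Gfra3 levels was not tested. The 6 satellite glia markers also summed to more than the 6 markers of the class itself in these cells.

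None of the 7 non-neuronal classes had a member called, and edgeR called 0 of their 10207 to 13068 genes (0%). At an unadjusted p under 0.05 edgeR gave 193 to 528 genes per class, and DESeq2 called 7 to 30, no member among them. Over all kept cells, 12 genes were called (0.069%) and no member, with Gfra3 at 63.9, 78.8, 149 and 134 CPM and Gfra2 at 114, 133, 66.5 and 63.9 CPM. There, fewer cells of a type and less RNA per cell cannot be told apart. DESeq2 gave adjusted p-values of 0.0120 for Gfra2 and 6.8e-04 for Gfra3 over all kept cells.

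**Figure D5:**
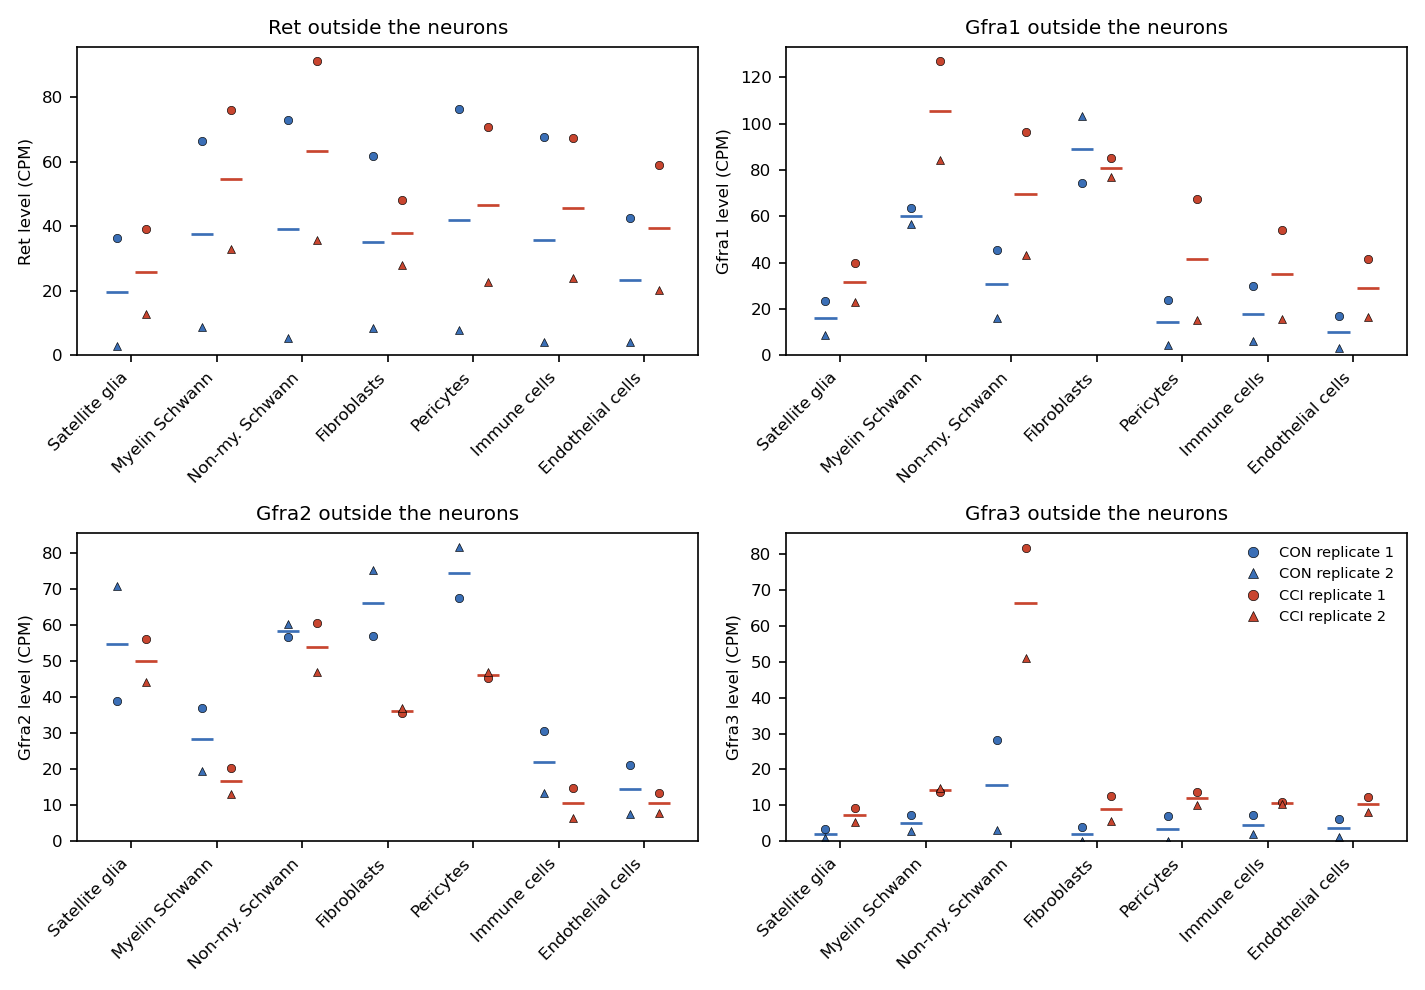
Levels of Ret, Gfra1, Gfra2 and Gfra3 (y axes, CPM from 0) in 7 non-neuronal classes (x axes). Points are libraries and bars are group means. Ret is lowest in CON replicate 2 in every class, at 2.77 to 8.77 CPM, whereas Gfra1 stands out in fibroblast-like and myelin-forming Schwann-like cells.

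Around Ret, a list of 58 further genes of the pathway was examined in neurons: other ligands and receptors, adaptors and kinases that bind Ret, the ERK and AKT kinases, ubiquitin ligases, feedback regulators and targets, and 2 transcription factors of non-peptidergic neurons. Of these, 55 could be tested, 2 rose, 1 fell and 52 did not pass, so 3 of 55 were called beside 5.09% of all genes tested, a share near the background. The list's median log2 fold change was -0.08, beside -0.02 over all genes tested.

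Dok5, an adaptor that docks on Ret, rose from 3.41 and 3.55 CPM to 7.42 and 7.57 CPM, a log2 fold change of 1.18 ± 0.22 (SE), adjusted p = 0.0169 in edgeR. Pdlim7, a LIM-domain protein known to bind Ret, went from 261 and 236 CPM to 379 and 429 CPM, with 0.78 ± 0.19 and an adjusted p of 0.0453. Etv1, an ETS transcription factor, fell from 108 and 93.4 CPM to 53.4 and 51.6 CPM, with -0.87 ± 0.17 and an adjusted p of 0.0226 in edgeR. Outside the CIP-like clusters 0 of the 55 listed genes tested passed, these 3 included, beside 1.45% of all genes.

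None of the 12 ERK and AKT kinases and none of the 4 ubiquitin ligases and their partners passed the test in neurons. Sdc3, a syndecan known to bind GDNF, was at 46.4, 39.1, 77.2 and 55.7 CPM, 0.70 ± 0.20 (SE) on the log2 scale, adjusted p = 0.0837 in edgeR. Gdf15, the ligand of Gfral, was at 4, 7, 53 and 44 UMIs, with an adjusted p of 0.0606, while its receptor Gfral had 0, 1, 0 and 0 UMIs. Pspn, the ligand of Gfra4, was at 0 in all 4 libraries.

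No other listed receptor passed the test in neurons. Gfra4 was at 27.0, 40.2, 20.7 and 32.9 CPM, with a log2 fold change of -0.25 ± 0.29 (SE). Ncam1, a further receptor for GDNF, gave -0.14 ± 0.18, and Sorl1, which carries GDNF and Gfra1 inside cells, gave -0.60 ± 0.21, adjusted p = 0.177 in edgeR. Lrig1, which holds Ret signalling down, gave 0.14 ± 0.26 and Gas1 gave -0.32 ± 0.49.

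In NF-Pvalb-like neurons 50 of the listed genes could be tested and 2 rose, beside 1.52% of all genes called higher and 1.57% called in either direction. Sdc3 had a log2 fold change of 1.70 ± 0.29 (SE), adjusted p = 0.010 in edgeR, and Ncam1 had 1.54 ± 0.30, adjusted p = 0.0259. The list's median there was 0.07, beside 0.00 over all genes tested.

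Across 30 sums of neuron subtypes and libraries, over 9 subtypes, the genes most like each receptor were found by Pearson's r on log2 levels among 4514 genes. Gfra3 was most like Trpv1 (r = 0.896), the capsaicin receptor, then Tmtc4 (0.894) and Sbno2 (0.883). Gfra2 was most like Magi1 (0.873), Brap (0.857) and Txn1 (0.848), Gfra1 most like Abhd17b (0.872), Ncstn (0.802) and Sec11c (0.777), and Ret most like Gng5 (0.868), Tspan17 (0.794) and Aen (0.773). Sums of 1 library share its depth and background, so these values are descriptions. Trpv1 was also among the markers that named PEP1-like clusters.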

How the data were processed

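Single-cell suspensions of L4 and L5 DRGs, 2 libraries per group, were sequenced with the 10x Genomics 3' v3.1 chemistry. The labels name collagenase digestion and freezing, whereas the study's methods name Liberase and papain. The authors trimmed reads with fastp, aligned them to mm10 and counted UMIs with Cell Ranger 5.0.1, per the file headers, and the deposited values are raw counts of UMIs per gene and barcode. The submitters' processing notes also name CASAVA 1.8 and Seurat. The study's later downsampling and cell filter are not in these matrices, and mitochondrial genes are.

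A barcode was kept if it held over 500 genes and less than 20% of its UMIs were mitochondrial. Mitochondrial genes were then dropped. Total counts per library before the filter were 52074235 to 135009606. Cells were clustered with Seurat 5.3.0 and sctransform 0.4.2 (anchor integration, 2000 features, 10 components, resolution 0.8), with the 7 members and the pathway genes left out of the features. A cluster was named when at least 3 markers of a class stood 1.5-fold above the other clusters, and CIP-like when at least 4 of 5 CIP markers stood 2-fold above the other neurons. Clusters with neuron markers and a median UMI count below the library median were set apart as low-UMI and left out of the neurons. Some of these naming limits were set after the clusters were seen. Doublets were not removed.

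For each class, the UMIs of a library were added up, and the sums were compared with edgeR 4.0.16 (quasi-likelihood test, TMM, filterByExpr, two-sided, Benjamini-Hochberg over all genes tested, threshold 0.05) in R 4.3.3, for classes with at least 20 cells in every library. The difference of the CCI effect between a subtype and the other neurons outside the CIP-like clusters was taken as an interaction term, blocking on library. An exact permutation test of 2 against 2 libraries cannot go below p = 0.333 and was not used. Exact intervals were made with scipy 1.17.1 at 95%. DESeq2 1.42.0, other scalings, filters, clusters and depths and leaving out each library were alternatives. The edgeR steps were tested on simulated sums. In neurons, NF-Pvalb-like and satellite glia-like cells, 49.5%, 20.4% and 1.03% of 2-fold changes were recovered. For 4-fold changes these shares were 84.7%, 91.8% and 45.8%. Unchanged genes called were 19, 9 and 11, in fits of 15309, 10498 and 12814 genes. Only a small part of the genes was changed in each simulation. The rate of false calls is therefore the share of these genes among all genes called, which was not worked out.

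The genes named are the 7 members in every class, the listed pathway genes past the threshold in neurons (at most 8 by size of change), every listed ligand or receptor, and the 3 genes most like each receptor. The 2 pathway genes named in NF-Pvalb-like neurons fall outside that rule and were chosen after their values were seen. Members and lists were chosen with earlier results of these data known. Gene positions came from a RefSeq table of GRCm38.p6.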

Additional observations from a re-analysis of the deposited data

Results flagged for a closer look

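The CCI effect differed between a neuron subtype and the other neurons outside the CIP-like clusters in 4 cases, each by a test of the difference itself in edgeR. The other neurons were pooled per library, and the part of their changed make-up in these differences was not tested. In NF-Pvalb-like neurons the log2 fold change of Gfra1 was 1.547723 higher and that of Ret was 1.530451 higher than in the other neurons. In NP1-like neurons the difference for Gfra1 was -1.0857, and in PEP1-like neurons the difference for Gfra3 was -1.440385. The groups compared are 2 libraries each, and each of the 4 calls was lost without 1 library.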

How the results depend on the processing

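Members called changed with the tool, the scaling, the filters and the libraries. Upper-quartile factors left 2 members called in neurons. DESeq2 called 2 members over all kept cells and 1 in neurons outside the CIP-like clusters, where edgeR called 0. Without the filter on low counts, 1 member was called in each of neurons outside the CIP-like clusters, NP1-like and cLTMR1-like neurons, and among the differences of the CCI effect 3 were called for NP1-like and 1 for cLTMR1-like neurons. The stricter filter on cells left 1 member called in NF-Pvalb-like neurons. All genes called in neurons rose from 791 to 1755 without the filter on low counts, and those in NF-Pvalb-like neurons from 168 to 356, or to 306 in clusters made without integration. In those clusters the mean level in CPM was 71.0 for Gfra1 in NF-Pvalb-like CON cells, 505 for Gfra2 in cLTMR1-like CON cells and 8.02 for Nrtn in NF-Pvalb-like CCI cells.

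With each library left out in turn, the members called ranged from 1 to 3 in neurons, 0 to 2 outside the CIP-like clusters, 0 to 1 in NP1-like, 0 to 1 in PEP1-like, 0 to 2 in cLTMR1-like and 0 to 3 in NF-Pvalb-like neurons. All genes called ranged from 726 to 1619 in neurons and from 142 to 491 in NF-Pvalb-like neurons. The differences of the CCI effect gave 0 to 2 members for NP1-like, 0 to 1 for PEP1-like, 0 to 1 for cLTMR1-like and 1 to 3 for NF-Pvalb-like neurons. The direction turned for 2 changes that did not pass the test: with single libraries left out, Gfra2 in NF-Pvalb-like neurons ranged from -0.11 (without CON replicate 2) to 0.76 on the log2 scale, and Ret over all kept cells from -0.060 (without CCI replicate 1) to 0.42. The library left alone in its group is assumed to vary like the other group. The cause of these changes was not tested.

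The replicate numbers are shared by CON and CCI and nothing says that they pair the mice. With the replicate block, 3 members were called outside the CIP-like clusters, 1 in NP1-like and 1 in cLTMR1-like neurons, and 2017 genes in neurons. It gave 3 members in neurons and 3 in NF-Pvalb-like neurons. The correlation of same-numbered deviations was 0.264 in neurons and 0.123 in NF-Pvalb-like neurons, from 0.037 to 0.627 over the classes.

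Without thinning, Ret and Gfra2 were seen together in 75.5% of NP1-like CCI cells and in 100% of cLTMR1-like cells of both groups, Ret and Gfra1 in 73.7% of NF-Pvalb-like CCI cells, and Ret and Gfra3 in 84.7% of CON and 95.2% of CCI PEP1-like cells and 88.5% of CIP-like CCI cells. Cells of at least 10000 UMIs and the differences with a library left out were chosen after seeing the data. The ligands' counts limit what could be seen of them.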
